A study of Rattus norvegicus with 9 samples.

Results

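The elastic fibre genes described here were 10 genes of the rat left ventricle: Eln, Fbn1, Fbln1, Fbln2, Fbln5, Emilin1, Mfap2, Mfap5, Efemp1 and Efemp2. They were chosen by name from the 35843 genes of the expression table, and each name was found in it. RNA sequencing had been performed on left ventricles of 9 adult male Sprague-Dawley rats, 3 in each of 3 groups, with tissue taken on day 28. Group MI had a left anterior descending coronary artery that had been tied off permanently, which causes myocardial infarction (MI), and received saline by daily gavage. Group MI + DAPA (1st d), called the DAPA group here, had the same ligation and received dapagliflozin, an inhibitor of the renal glucose transporter SGLT2, at 1 mg/kg by daily gavage from day 1. Group Sham had the operation without ligation and received saline. Each library is taken as 1 rat, in keeping with the study's biological replicates, although the labels name a pair of numbered parts for each and do not say what these are. The labels give the tissue as heart and the study's methods as left ventricle, and all values are bulk measurements of a mixed tissue. The study's methods state that the infarct border was mainly used for molecular work, with the scar removed, whereas its account of the sequencing speaks of infarct myocardium in MI and DAPA and normal myocardium in Sham, so the part of the ventricle that was sequenced is not clear.

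Elastic fibres give tissue its recoil. They consist of a core of cross-linked elastin on a scaffold of fibrillin microfibrils, and smaller glycoproteins such as fibulins, microfibril-associated glycoproteins and emilins bind the scaffold and guide the deposition of elastin. In the heart the fibres lie mainly in vessel walls, in the endocardium and epicardium and, after injury, in scar tissue, where fibroblasts are a main source of matrix.

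Promoter sequences were available for 7 of the 10 genes in the RefSeq table of build GRCr8: Efemp2, Fbn1, Fbln2, Mfap5, Mfap2, Fbln5 and Efemp1. Those of 2 pairs of related genes are shown, because in each pair 1 gene passed the study's criteria in the comparison of DAPA with MI and the other did not. Mfap2 (chr5:158597478-158597777) and Mfap5 (chr4:157399669-157399968) encode the microfibril-associated glycoproteins, and Efemp1 (chr14:106811614-106811913) and Efemp2 (chr1:212211472-212211771) encode fibulin-3 and fibulin-4. All 4 lie on the plus strand, and each window of 300 bases runs 5′ to 3′ from 250 bases before the gene's start. Capitals mark matches to the searched motifs.
Mfap2: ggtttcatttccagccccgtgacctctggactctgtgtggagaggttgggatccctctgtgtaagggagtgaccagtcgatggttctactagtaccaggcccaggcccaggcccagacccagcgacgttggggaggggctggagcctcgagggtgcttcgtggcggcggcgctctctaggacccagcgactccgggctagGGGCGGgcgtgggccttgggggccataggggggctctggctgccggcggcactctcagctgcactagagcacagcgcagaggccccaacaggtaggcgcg
Mfap5: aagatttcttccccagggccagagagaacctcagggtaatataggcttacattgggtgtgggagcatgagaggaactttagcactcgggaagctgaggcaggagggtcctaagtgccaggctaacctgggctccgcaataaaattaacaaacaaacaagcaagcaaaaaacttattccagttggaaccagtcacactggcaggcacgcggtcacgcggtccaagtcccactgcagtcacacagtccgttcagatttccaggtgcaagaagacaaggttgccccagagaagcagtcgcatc
Efemp1: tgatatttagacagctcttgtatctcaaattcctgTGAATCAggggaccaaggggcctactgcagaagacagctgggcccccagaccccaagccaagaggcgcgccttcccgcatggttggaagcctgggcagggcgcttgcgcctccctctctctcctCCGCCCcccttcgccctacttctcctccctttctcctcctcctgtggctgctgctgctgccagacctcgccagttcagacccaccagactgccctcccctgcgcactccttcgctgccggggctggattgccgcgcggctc
Efemp2: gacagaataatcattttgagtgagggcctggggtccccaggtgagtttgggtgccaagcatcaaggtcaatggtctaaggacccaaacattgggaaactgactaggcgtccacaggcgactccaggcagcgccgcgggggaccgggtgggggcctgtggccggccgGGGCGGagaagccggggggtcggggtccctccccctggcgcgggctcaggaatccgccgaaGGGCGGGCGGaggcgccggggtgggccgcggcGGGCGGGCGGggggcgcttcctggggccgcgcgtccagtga

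The motifs were searched on both strands: TATAAA (the TATA box), GGGCGG (the GC box), GGAATG (the letters bound by TEAD factors), TGANTCA (a broad form of the AP-1 site, with any base at N) and the CArG box of serum response factor. GGGCGG was present in 5 of the 7 windows and in 33.1% of all 33469 promoter windows of the same length. The Efemp2 window held 5 GC boxes, in 2 overlapping pairs and 1 single copy, the Mfap2 window held 1, and the Mfap5 window held none of the motifs. TGANTCA was found only in the window of Efemp1 among the 7, which also held 1 GC box, and it was present in 7.33% of all windows. The Efemp1 match reads TGAATCA, a match to the broad form only by its free middle base. GGAATG was found in the Fbln5 window and in 14.2% of all windows. TATAAA, present in 14.2% of all windows, and the CArG box, present in 1.64%, matched none of the 7. These matches describe letters in the windows and are no evidence of binding.

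The levels below are FPKM as the authors deposited them, read fragments scaled to transcript length and by a factor per library. From whole-read steps in the FPKM values, 13597239 to 17210909 reads per rat were recovered. The factor did not follow these totals. With 15565791 reads in MI rat 1 and 16899773 in Sham rat 1, 1 read counted 0.542 in MI rat 1 relative to 1 in Sham rat 1. The FPKM sum of all genes ran from 484156 in MI rat 2 to 1746107 in Sham rat 3. Reads on genes outside the mitochondrial genome numbered 5899666 to 6858645 in Sham, 12655397 to 13222454 in MI and 11519732 to 12131819 in DAPA. The fewest reads behind a member's value were 54 in Sham, 686 in MI and 162 in DAPA. Mitochondrial genes held 59.9 to 65.7% of reads in Sham, 6.93 to 18.7% in MI and 17.1 to 31.6% in DAPA. Cardiomyocyte markers were present in every library, with a summed level of 6679 to 9873 FPKM in Sham, 1962 to 9681 in MI and 7520 to 15910 in DAPA. Of the ventricular and atrial myosin light chains, Myl2 was at 31.3 to 283 FPKM and Myl7 at 0.412 to 17.7 FPKM across the 9 rats. Differences were tested with limma on log2(FPKM + 1), and a gene was called when its unadjusted p was under 0.05 and its absolute log2 fold change was over 1, the study's own criteria.

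All 10 elastic fibre genes rose in MI compared with Sham. Each passed the criteria, and each also passed with the Benjamini-Hochberg adjusted p of limma under 0.05. Over all 13485 genes tested, 12.1% were called higher, or 11.5% with the adjusted p. The median log2 fold change of the 10 genes was 2.52, against -0.01 over all genes tested. The highest Sham rat lay below the lowest MI rat for all 10 genes, while such a separation upward was seen in 27.1% of all genes. In bulk tissue, more cells of a type and more RNA per cell cannot be told apart. The summed level of the 10 genes was 173 ± 37.6 FPKM (SD, n = 3) in Sham, 1198 ± 358 FPKM in MI and 723 ± 198 FPKM in DAPA.

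**Figure D1:**
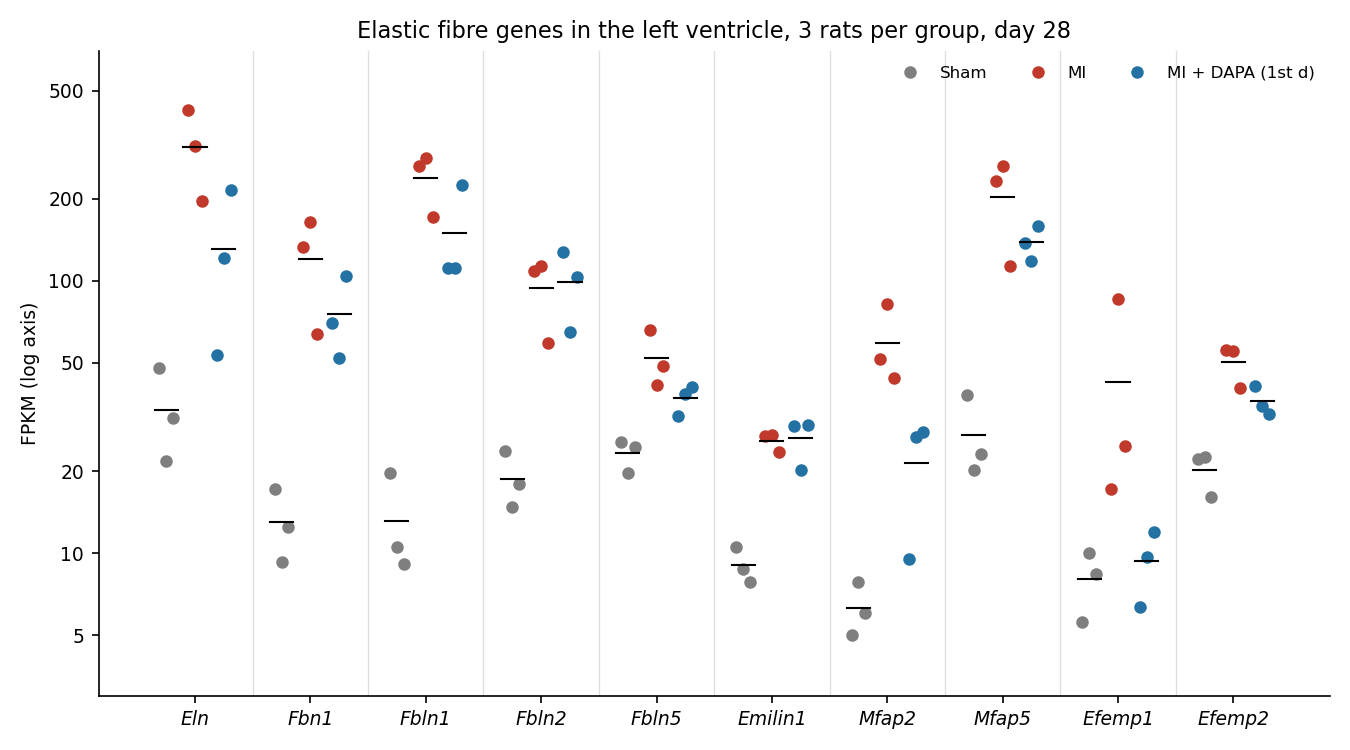
FPKM of the 10 elastic fibre genes in each rat, on a log axis. Points are rats, in the order 1 to 3 from left to right within each group, and black lines are group means. All 10 genes lie higher in every MI rat than in any Sham rat, and Mfap2, Efemp1 and Fbln5 lie lower in every DAPA rat than in any MI rat.

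Fewer genes differed between DAPA and MI. Mfap2, Efemp1 and Eln were lower in DAPA under the study's criteria, which were met downward by 1.11% of the 13251 genes tested and upward by 0.951%. None of the 3 passed after adjustment: the adjusted p from limma was 0.558 for each, which was also the smallest of all genes in this comparison, where 1125 genes had an unadjusted p under 0.05. Of the 10 fold changes, 8 were negative and 2 positive, beside 52.8% negative and 47.2% positive over all genes, with a median of -0.55 against -0.02. The groups did not overlap for 3 members, Mfap2, Efemp1 and Fbln5, and 7.16% of all genes were lower without overlap.

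Compared with Sham, 7 of the 10 genes were still higher in DAPA, also with the adjusted p. The share of all 13359 genes called higher was 9.54%, or 8.74% after adjustment. The median log2 fold change was 1.64 against 0.01 over all genes. No overlap with Sham was seen for 9 of the 10 genes, all higher, beside 23.2% of all genes. The 3 genes not called were Efemp1, Fbln5 and Efemp2. The comparisons share rats, since the MI rats also served in DAPA vs. MI and the Sham rats in both comparisons with Sham, so they are given side by side and not as independent results.

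**Figure D2:**
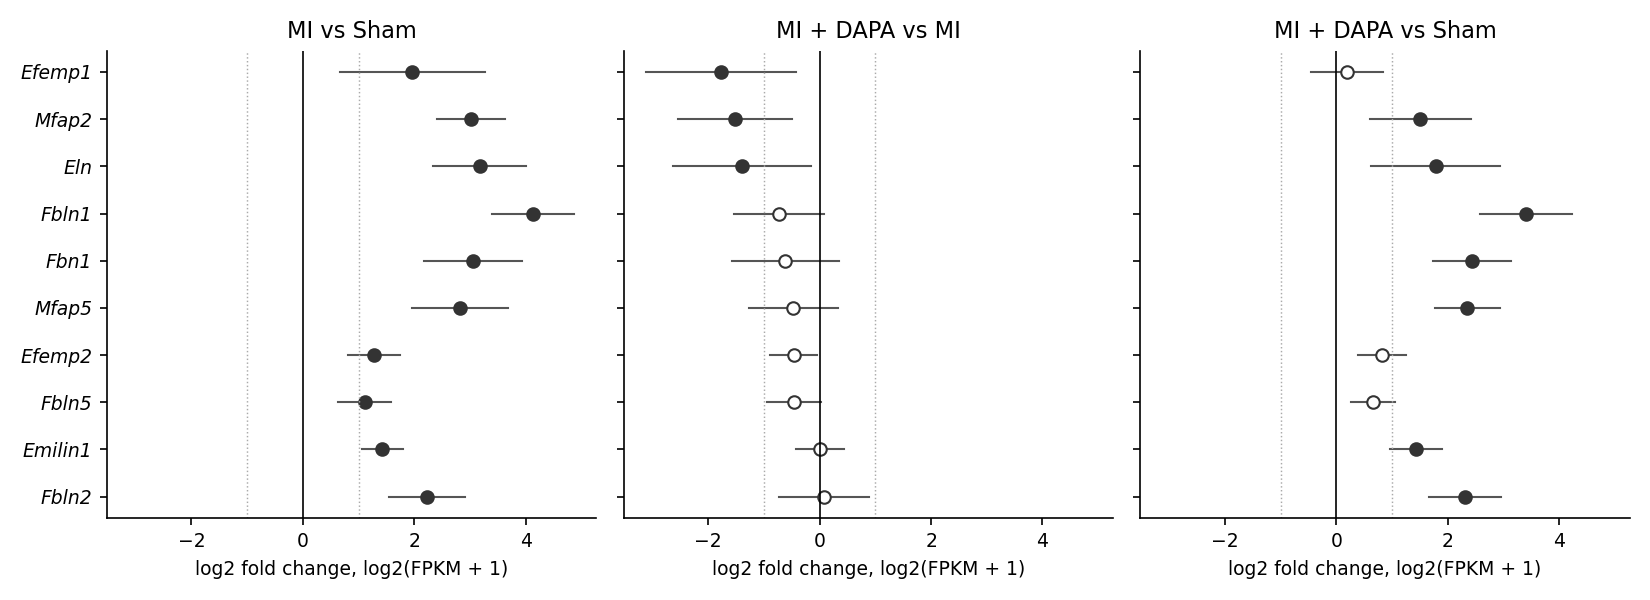
Log2 fold change of each gene on the log2(FPKM + 1) scale with its 95% confidence interval from limma, in the 3 comparisons. Filled points passed the study's criteria, open points did not, dotted lines mark a log2 fold change of 1 in either direction, and genes are ordered by their change in DAPA vs. MI, from -1.77 for Efemp1 to 0.07 for Fbln2.

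Eln (ENSRNOG00000001469) encodes tropoelastin, the monomer of the elastic core. Its level was 47.9, 21.8 and 31.3 FPKM in Sham rats 1 to 3, 422, 313 and 197 FPKM in MI rats, and 53.5, 122 and 216 FPKM in DAPA rats. All MI rats exceeded all Sham rats, whereas DAPA rat 3 lay above MI rat 3 and DAPA rat 1 lay close to Sham rat 1. Eln rose by a log2 fold change of 3.17 (SE 0.36, adjusted p = 0.00147 by limma) in MI. It was lower in DAPA than in MI by a log2 fold change of -1.39 (SE 0.52, unadjusted p = 0.0334 and adjusted p = 0.558 by limma). The DAPA rats spanned a 4.04-fold range for Eln, the widest range within a DAPA group among the 10 genes. The call was lost when certain single rats were left out. The limma p was 0.0996 without MI rat 1, 0.0669 without MI rat 2, 0.0855 without DAPA rat 1 and 0.0657 without DAPA rat 2. The log2 fold change in these fits was -1.14, -1.35, -0.86 and -1.45 in the same order.

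Fbn1 (ENSRNOG00000007302) encodes fibrillin-1, the backbone of the microfibril. It was at 17.2, 9.27 and 12.5 FPKM in Sham, 133, 165 and 63.7 FPKM in MI, and 69.9, 51.9 and 105 FPKM in DAPA. The MI rats were separated from Sham and overlapped with DAPA. The rise in MI was a log2 fold change of 3.05 (SE 0.37, adjusted p = 0.00183 by limma), and the difference between DAPA and MI was -0.62, with a 95% confidence interval from -1.58 to 0.34. This value was -1.02 without MI rat 3, with an unadjusted p of 0.0189 by limma, which met the criteria, -0.34 without MI rat 2 and -0.38 without DAPA rat 2. The ratio of Eln to Fbn1, core to scaffold, was between 1.90 and 3.18 in the Sham and MI rats together and was 0.766 in DAPA rat 1, 2.35 in DAPA rat 2 and 2.07 in DAPA rat 3.

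Mfap2 and Mfap5 encode MAGP-1 and MAGP-2, small glycoproteins that decorate fibrillin microfibrils. Mfap2 (ENSRNOG00000008257) was at 4.99, 7.82 and 6.04 FPKM in Sham, 51.6, 81.9 and 44.0 FPKM in MI, and 9.50, 26.7 and 28.0 FPKM in DAPA. No rat of one group reached the range of another, and the DAPA rats lay between Sham and MI. Mfap2 rose by 3.02 on the log2 scale in MI (SE 0.26, adjusted p = 9.53e-04 by limma). It was lower in DAPA by a log2 fold change of -1.52 (SE 0.43, unadjusted p = 0.0103 by limma). Leaving out each rat in turn left its log2 fold change between -1.77 and -1.04, and it was the only one of the 3 genes called in all 6 of these fits.

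Mfap5 (ENSRNOG00000015505) started from a higher level. It was at 38.2, 20.2 and 23.2 FPKM in Sham, 233, 264 and 113 FPKM in MI, and 138, 118 and 159 FPKM in DAPA. The DAPA rats lay within the MI range, and the difference between DAPA and MI was -0.47 with a 95% confidence interval from -1.26 to 0.32. It was -0.85 without MI rat 3 (unadjusted p = 0.00715 by limma), under the fold threshold, and -0.24 without MI rat 2. The fold changes of Mfap2 and Mfap5 in this comparison thus differed, but the ratio of Mfap2 to Mfap5 overlapped between groups. It was 0.222, 0.311 and 0.390 in MI and 0.0687, 0.225 and 0.176 in DAPA (two-sided exact permutation p = 0.2, adjusted p = 0.4 over 12 ratio comparisons chosen after values were seen).

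The fibulins are elongated glycoproteins that link elastin to other matrix. Fbln1 (ENSRNOG00000014137), encoding fibulin-1, had the largest fold change in MI among the 10 genes. It was at 19.8, 10.6 and 9.17 FPKM in Sham, 264, 283 and 172 FPKM in MI, and 112, 112 and 225 FPKM in DAPA. The log2 fold change was 4.13 in MI vs. Sham (SE 0.31, adjusted p = 9.53e-04 by limma), and the mean FPKM was 18.2-fold higher. DAPA rat 3 lay within the MI range and the other DAPA rats below it, and the difference between DAPA and MI was -0.73 with a 95% confidence interval from -1.53 to 0.08. Without DAPA rat 3 it was -1.06 (unadjusted p = 0.00652 by limma) and met the criteria, and without MI rat 3 it was -0.95 (unadjusted p = 0.0375 by limma).

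Fbln2 (ENSRNOG00000007338), encoding fibulin-2, which is known to appear during vessel and valve remodelling, rose in MI and was also higher in DAPA than in Sham. It was at 23.7, 14.8 and 17.9 FPKM in Sham, 109, 114 and 59.3 FPKM in MI, and 128, 65.1 and 103 FPKM in DAPA. The difference between DAPA and MI was 0.07 (95% confidence interval -0.73 to 0.88), so neither a moderate rise nor a moderate fall could be resolved, and its direction turned to -0.29 when each library was scaled to the FPKM sum of all genes, to -0.23 without MI rat 3 and to -0.14 without DAPA rat 1. The ratio of Fbln1 to Fbln2 was 0.835, 0.713 and 0.512 in Sham, 2.42, 2.49 and 2.89 in MI, and 0.877, 1.72 and 2.18 in DAPA. The 3 groups did not overlap in this ratio, with MI highest and Sham lowest. Each pairwise exact permutation test gave p = 0.1, the smallest that 3 rats against 3 allow, and an adjusted p of 0.3 over the 12 ratio comparisons.

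Fbln5 (ENSRNOG00000050539), whose product binds elastin and cross-linking enzymes, rose least in MI. It was at 25.5, 19.8 and 24.5 FPKM in Sham, 65.8, 41.6 and 48.6 FPKM in MI, and 32.0, 38.5 and 40.7 FPKM in DAPA. The log2 fold change in MI was 1.11 (SE 0.20, adjusted p = 0.00618 by limma), and it was 0.93, below the fold threshold, without MI rat 1. All DAPA values lay between the highest Sham and the lowest MI value, with a difference from MI of -0.46 (unadjusted p = 0.0573 by limma) and from Sham of 0.65 (adjusted p = 0.0262 by limma). The difference from MI was -0.28 without MI rat 1 and -0.60 without MI rat 2 (unadjusted p = 0.0227 by limma), both under the fold threshold.

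Efemp1 (ENSRNOG00000003553) encodes fibulin-3, a basement membrane and matrix glycoprotein. It was at 5.61, 10.1 and 8.37 FPKM in Sham, 17.2, 86.1 and 24.7 FPKM in MI, and 6.35, 9.69 and 11.96 FPKM in DAPA. MI rat 2 stood far above the other MI rats, while the Sham and DAPA ranges largely overlapped. Efemp1 rose in MI by a log2 fold change of 1.97 (SE 0.55, adjusted p = 0.0285 by limma), or by 1.295 without MI rat 2. It was lower in DAPA than in MI by -1.77 (SE 0.57, unadjusted p = 0.017 by limma), or by -1.10 without MI rat 2. The p was 0.061 without DAPA rat 1. DAPA and Sham differed by 0.19 (95% confidence interval -0.45 to 0.83, adjusted p = 0.636 by limma), a difference that became 1.24 when libraries were scaled to the FPKM sum of all genes, a scaling that moved the median of all genes by 0.98.

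Markers of the mesothelium, the cell layer that covers the heart, were set beside Efemp1, and some of them moved with it and others did not. The summed level of 7 mesothelial markers was 32.8 to 39.9 FPKM in Sham, 9.45 to 97.3 FPKM in MI and 10.2 to 14.6 FPKM in DAPA, so Sham and DAPA differed in this sum although they overlapped for Efemp1. Nearly all of the Sham sum was Wt1, which was at 37.9, 32.4 and 37.5 FPKM in Sham, 10.3, 8.12 and 4.96 FPKM in MI, and 9.23, 13.5 and 8.61 FPKM in DAPA. Wt1 fell in MI by 2.12 on the log2 scale (adjusted p = 0.0015 by limma) and differed between DAPA and MI by 0.41, both in the opposite direction to Efemp1. Msln, which encodes mesothelin, was at 13.3, 78.8 and 3.42 FPKM in MI and at 0.416, 0.228 and 0.405 FPKM in DAPA. Of 3 mesothelial markers tested between DAPA and MI, only Msln was called, lower by a log2 fold change of -3.67 (adjusted p = 0.558 by limma). Of all genes, 1.11% were called lower in that comparison. MI rat 2 was highest for both Msln and Efemp1, but the lowest MI rat was rat 3 for Msln and rat 1 for Efemp1. Other markers at low levels were also higher on average in MI. Upk3b was at 3.92, 2.62 and 0.0878 FPKM in MI and 0, 0 and 0.139 FPKM in DAPA. Upk1b was at 3.80, 4.56 and 0.873 FPKM in MI and 1.15, 0.874 and 0.746 FPKM in DAPA. The means of Lrrn4 and Krt19 were 1.20 and 0.790 FPKM in MI and 0.0437 and 0.0666 FPKM in DAPA. For each of these, MI rat 3 was the lowest of its group. Bnc1 was at 0 in 8 of the 9 rats and at 0.0599 FPKM in MI rat 2. The part of mesothelial cells in the Efemp1 values was not tested.

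Efemp2 (ENSRNOG00000020587) encodes fibulin-4, which is needed to bring lysyl oxidase to tropoelastin. It was at 22.1, 22.5 and 16.1 FPKM in Sham, 55.9, 55.1 and 40.4 FPKM in MI, and 41.1, 34.8 and 32.6 FPKM in DAPA. DAPA rat 1 lay just above MI rat 3, and the other DAPA rats lay below all MI rats. The difference between DAPA and MI was -0.46 (SE 0.18, unadjusted p = 0.0363 by limma), under the fold threshold. The ratio of Efemp1 to Efemp2 was 0.308, 1.56 and 0.611 in MI and 0.154, 0.278 and 0.367 in DAPA, so the groups overlapped (exact permutation p = 0.2, adjusted p = 0.4 over the 12 ratio comparisons).

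Emilin1 (ENSRNOG00000008246) encodes a glycoprotein at the interface between elastin and microfibrils. It was at 10.6, 8.73 and 7.87 FPKM in Sham, 27.0, 27.2 and 23.5 FPKM in MI, and 29.5, 20.2 and 29.5 FPKM in DAPA. Its log2 fold change was 1.42 in MI vs. Sham (SE 0.16, adjusted p = 0.00141 by limma) and 1.43 in DAPA vs. Sham (SE 0.20, adjusted p = 0.00359 by limma). DAPA differed from MI by 0.01 with a 95% confidence interval from -0.42 to 0.44, and the sign turned under scalings to the FPKM sum (-0.054 without mitochondrial genes, -0.35 with them) and when MI rat 3, DAPA rat 1 or DAPA rat 3 was left out.

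Set against the rise in MI, the part missing in DAPA varied among the 10 genes. On the log2 scale of group means it was 90.3% for Efemp1, 50.3% for Mfap2, 43.9% for Eln, 41.3% for Fbln5 and 36.1% for Efemp2. It was 20.3% for Fbn1, 17.6% for Fbln1 and 16.7% for Mfap5. For Emilin1 and Fbln2 it was -0.79% and -3.26%, that is, DAPA was at or just above MI. These percentages have the error of the fold changes behind them and were not tested against each other.

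The composition of the elastic fibre transcripts also shifted. Fbln1 made up 7.42% ± 1.67 (SD, n = 3) of the summed FPKM of the 10 genes in Sham, 20.3% ± 1.40 in MI and 20.1% ± 3.10 in DAPA. The shares of Fbln5 and Efemp2 went the other way, from 13.7% ± 1.88 and 11.99% ± 3.00 in Sham to 4.62% ± 1.64 and 4.35% ± 0.69 in MI, and they were 5.29% ± 1.08 and 5.29% ± 1.67 in DAPA. In MI vs. Sham 2 shares were higher without overlap (Fbln1 and Fbn1) and 4 were lower (Fbln2, Fbln5, Emilin1 and Efemp2). Each of these 6 had an exact permutation p of 0.1 and an adjusted p of 0.214 over the 30 share comparisons.

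Between DAPA and MI, the shares of Fbln2 and Emilin1 were higher without overlap. Fbln2 held 7.91, 7.96 and 7.55% in MI rats and 20.6, 10.9 and 10.9% in DAPA rats, and Emilin1 held 1.95, 1.90 and 2.99% in MI and 4.75, 3.38 and 3.11% in DAPA (exact permutation p = 0.1 and adjusted p = 0.214 for both). The share of Eln was 30.6, 21.9 and 25.1% in MI and 8.64, 20.3 and 22.7% in DAPA, with an overlap between groups. In DAPA rat 1, Mfap5, Fbln2, Fbln1 and Fbn1 each held more than Eln.

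**Figure D3:**
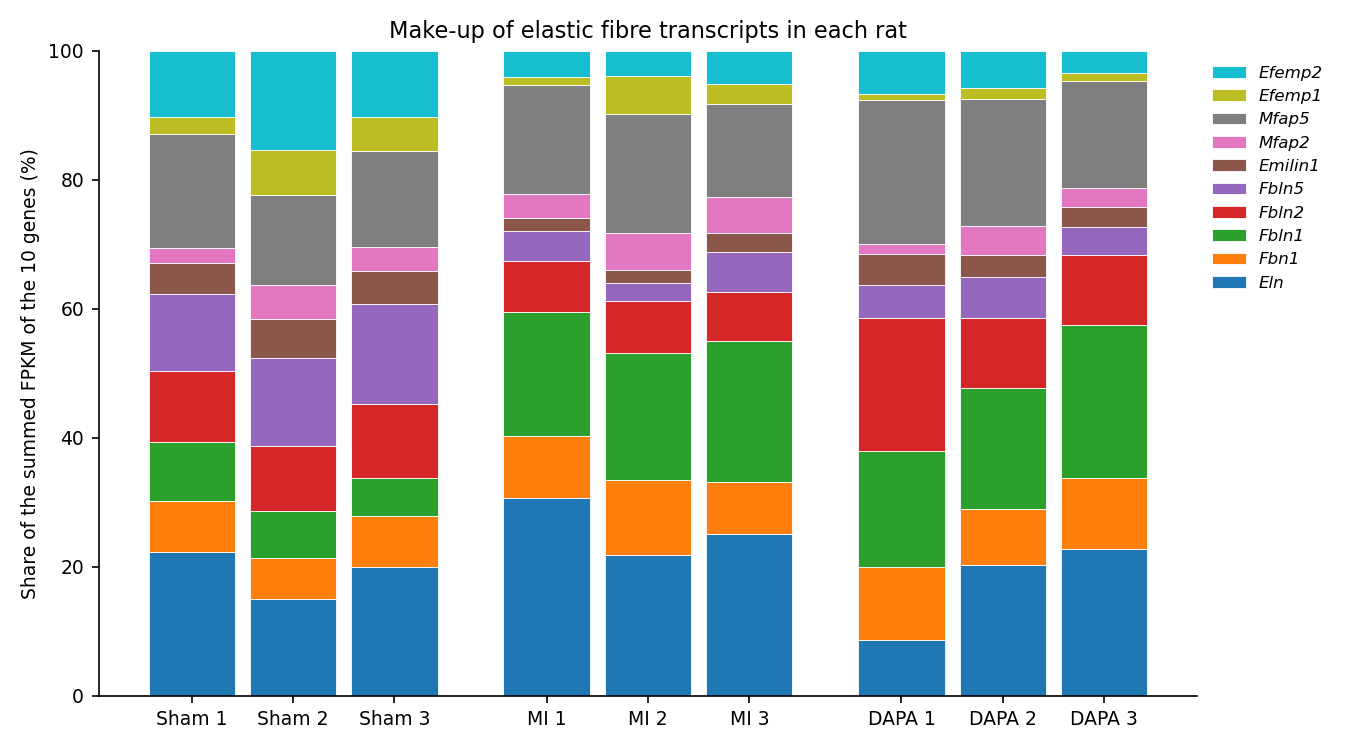
Share of each gene in the summed FPKM of the 10 elastic fibre genes, 1 stacked bar per rat. The share of Fbln1 is between 5.84 and 9.18% in Sham and between 18.1 and 23.7% in the MI and DAPA rats, and DAPA rat 1 has the smallest share of Eln, 8.64%.

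By mean level, Eln was the highest of the 10 in Sham (33.7 ± 13.2 FPKM, SD, n = 3) and MI (311 ± 113 FPKM), and Fbln1 the highest in DAPA (150 ± 65.6 FPKM). In Sham and MI every pair of neighbours in the order of levels overlapped between rats. In DAPA, a separation between neighbours was seen only below Fbn1, where Fbln5 followed, and between Efemp2 and Emilin1. Fbln1 was sixth in Sham and second in MI. The lowest mean was that of Mfap2 in Sham (6.28 ± 1.43 FPKM), Emilin1 in MI (25.9 ± 2.07 FPKM) and Efemp1 in DAPA (9.33 ± 2.82 FPKM).

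Rats of a group differed in the same way across many of the genes. MI rat 3 was the lowest of the MI rats for 8 genes and MI rat 2 the highest for 7. DAPA rat 3 was the highest of its group for 8 genes, and Sham rat 1 for 7. The fibroblast markers moved likewise: their summed level was 677, 711 and 466 FPKM in MI rats 1 to 3, 442, 432 and 728 FPKM in DAPA rats, and 78.8, 49.8 and 57.7 FPKM in Sham rats. Of 7 fibroblast markers tested, 6 were called higher in MI, beside 12.1% of all genes. In DAPA 1 was called lower than in MI (Scara5, -1.17, adjusted p = 0.558 by limma), beside 1.11% of all genes. All 7 had negative log2 fold changes in DAPA vs. MI, beside 52.8% of all genes, with a median of -0.46. In MI and DAPA the sums were mostly Pi16, with a mean of 387 FPKM in MI and 390 FPKM in DAPA and a log2 fold change of -0.02. In Sham rats 1 to 3, Pi16 was at 38.2, 11.1 and 22.2 FPKM. Cardiomyocyte markers ran the other way in these rats, with the lowest sum of the MI group in rat 2 (1962 FPKM) and of the DAPA group in rat 3 (7520 FPKM). All 8 cardiomyocyte markers had positive log2 fold changes in DAPA vs. MI, beside 47.2% of all genes, with a median of 1.32. Of them 2 were called higher, beside 0.951% of all genes. These were Tnni3 (1.56) and Myl2 (1.59), both with an adjusted p of 0.558 by limma. The part of cell composition in the elastic fibre values was not tested.

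**Figure D4:**
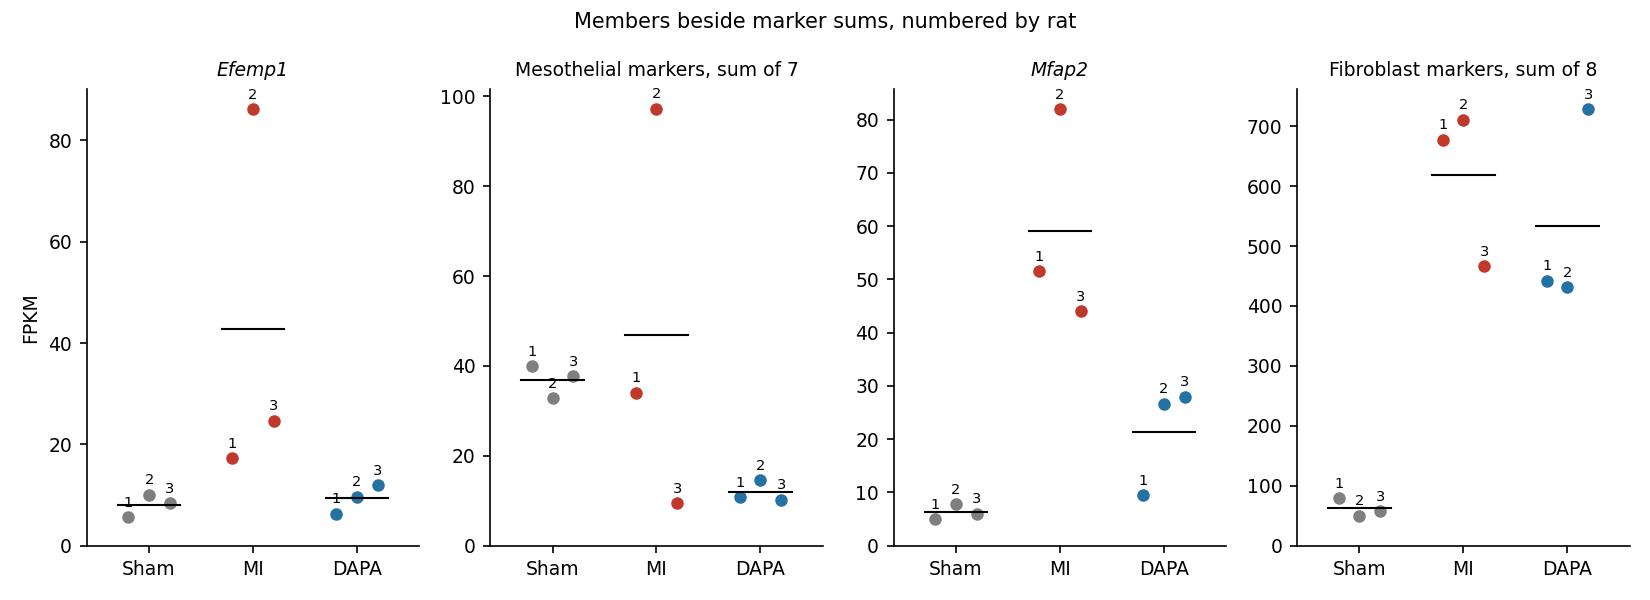
FPKM of Efemp1 and Mfap2 beside the summed FPKM of the mesothelial and fibroblast markers in each rat, numbered 1 to 3, with black lines at group means. MI rat 2 is highest for Efemp1 (86.1) and for the mesothelial sum (97.3), while for Mfap2 all DAPA rats lie below all MI rats and the fibroblast sums of DAPA (432 to 728) and MI (466 to 711) overlap.

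Each gene was therefore also expressed relative to the mean log2 level of the fibroblast markers in the same rat. The markers differed in their own log2 rise in MI, from 0.51 for Fap to 4.10 for Pi16 among those tested. Their mean is thus no common fibroblast level. In MI vs. Sham, Fbln1 was higher by 1.73, Eln by 0.77 and Fbn1 by 0.65 on this relative log2 scale, without overlap. Fbln5 (-1.29), Efemp2 (-1.12) and Emilin1 (-0.98) were lower without overlap, while their own levels had risen. In DAPA vs. MI, Efemp1 (-1.27), Mfap2 (-1.01) and Eln (-0.89) were lower without overlap. Emilin1 was higher by 0.51 on the relative scale, while its own level differed by 0.01. All of these relative differences had an exact permutation p of 0.1 and an adjusted p of 0.2 over 30 comparisons.

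Markers of other cell types are given as summed levels. Smooth muscle markers, which mark a cell type that also makes elastic fibres in vessel walls, were at 412 to 1463 FPKM in Sham, 536 to 731 in MI and 499 to 740 in DAPA. Of 8 markers none was called higher in MI, beside 12.1% of all genes. Smtn was the 1 called lower (-1.82, adjusted p = 0.00289 by limma), beside 10.3% of all genes. Pericyte markers were at 134 to 141, 282 to 373 and 255 to 425 FPKM in the same order, and macrophage markers at 44.8 to 124, 386 to 755 and 212 to 477 FPKM. All 7 macrophage markers were called higher in MI, beside 12.1% of all genes, and none was called between DAPA and MI. In DAPA vs. MI all 7 had negative log2 fold changes, beside 52.8% of all genes, with a median of -0.73. Mrc1 (-0.96, unadjusted p = 0.00995 by limma) and Cd163 (-0.98, unadjusted p = 0.00722 by limma) were under the fold threshold. Their adjusted p was 0.558 by limma. Endothelial markers were at 845 to 949, 230 to 300 and 318 to 359 FPKM, and 4 of 6 were called lower in MI, beside 10.3% of all genes. Of the pericyte and atrial markers, 2 of 6 and 2 of 5 were called higher in MI, beside 12.1% of all genes. Between DAPA and MI 1 of 4 atrial markers was called higher, beside 0.951% of all genes. It was Myl4 (1.63, unadjusted p = 0.044 and adjusted p = 0.558 by limma). No pericyte or endothelial marker was called between DAPA and MI. Atrial markers were at 20.6 to 40.9, 83.0 to 189 and 144 to 208 FPKM, and adipocyte markers at 0 to 0.232, 0.474 to 1.11 and 1.298 to 10.2 FPKM. The adipocyte sum of every DAPA rat lay above that of every MI rat, and no adipocyte marker passed the filter on low values. Their part in the elastic fibre values was not tested.

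Genes that act with the 10 were taken as 5 further lists: microfibril partners, cross-linking enzymes, elastin-degrading proteases, their inhibitors, and elastin receptors. Of 59 genes listed, 56 were found. In MI vs. Sham 45 were tested, of which 30 were called higher and 1 lower. Of all genes, 12.1% were called higher and 10.3% lower. With the adjusted p, 28 were higher and 1 lower, beside 11.5% and 9.93% of all genes. In DAPA vs. MI 46 were tested, none was called higher and 2 were called lower, and none passed after adjustment. Of all genes, 0.951% were called higher and 1.11% lower in this comparison, and none after adjustment. In DAPA vs. Sham 43 were tested, with 23 called higher and 1 lower, with and without adjustment. Of all genes, 9.54% were called higher and 8.16% lower, or 8.74% and 7.49% after adjustment. The median log2 fold changes were 1.69, -0.33 and 1.25 in the 3 comparisons.

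Among microfibril partners, 12 of 17 tested were higher in MI and none lower. Ltbp3, a latent TGF-β binding protein, was at 18.6 ± 1.07 FPKM (SD, n = 3) in Sham and 81.1 ± 19.7 FPKM in MI (log2 fold change 2.04). Bgn, the small proteoglycan biglycan, rose by 3.50, Vcan, the large proteoglycan versican, by 2.42 and Fbln7, encoding fibulin-7, by 2.70. In DAPA vs. MI 14 of the 17 fold changes were negative, beside 52.8% of all genes, and none was called. The smallest p values belonged to Ltbp1 (-0.80) and Fn1, encoding fibronectin (-1.01), both with an adjusted p of 0.558 by limma.

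All 4 cross-linking genes tested in MI vs. Sham were higher. Loxl1, a lysyl oxidase-like enzyme that works on elastin, was at 25.6, 8.19 and 10.7 FPKM in Sham, 186, 230 and 104 FPKM in MI, and 123, 84.4 and 154 FPKM in DAPA. DAPA and MI overlapped for it. Lox, the lysyl oxidase itself, was at 7.20, 1.80 and 3.38 FPKM in Sham, 43.0, 53.6 and 14.7 FPKM in MI, and 20.5, 10.01 and 18.8 FPKM in DAPA. Its log2 fold changes were 2.85 in MI vs. Sham (adjusted p = 0.0075 by limma) and -1.002 in DAPA vs. MI (unadjusted p = 0.0842 by limma). Loxl2 rose by 2.98 in MI and Loxl3 by 1.02. Atp7a, the copper transporter that loads lysyl oxidases, was tested in DAPA vs. MI only (-0.37, adjusted p = 0.609 by limma).

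Of the degrading proteases, 4 of 6 tested were higher in MI: Ctss by 3.82, Mmp2 by 3.61, Ctsk by 3.37 and Mmp14 by 3.08 on the log2 scale. Ctss, the elastolytic cathepsin S known from macrophages, was at 148, 243 and 153 FPKM in MI and 67.8, 64.4 and 125 FPKM in DAPA, without overlap. It was called lower in DAPA (-1.10, unadjusted p = 0.0108 and adjusted p = 0.558 by limma). Its log2 fold change dropped under the threshold without MI rat 2 (-0.88), DAPA rat 1 (-0.97) or DAPA rat 2 (-0.93). Ctsk, encoding cathepsin K, differed by -0.64 (unadjusted p = 0.0356 by limma), under the fold threshold.

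Of the inhibitors, 5 of 7 tested were higher in MI and 1 was lower. Timp2 rose by 2.79, Timp3 by 2.03, Slpi by 3.94 and Serpinb1a by 1.94, whereas Timp4 fell by 3.05 on the log2 scale. Timp4, the metalloproteinase inhibitor most typical of heart muscle, was at 65.0, 103 and 94.3 FPKM in Sham, 12.9, 5.39 and 11.99 FPKM in MI, and 11.4, 33.0 and 9.23 FPKM in DAPA. Slpi, an inhibitor of neutrophil elastase, was called lower in DAPA than in MI (-2.68, unadjusted p = 0.0286 and adjusted p = 0.558 by limma). It was at 16.1, 42.6 and 9.26 FPKM in MI and 12.8, 0.145 and 0.840 FPKM in DAPA, so DAPA rat 1 lay within the MI range. The limma p was 0.052 without MI rat 1, 0.0804 without MI rat 2, 0.0926 without DAPA rat 2 and 0.09005 without DAPA rat 3. Serpinb1a, an inhibitor of neutrophil serine proteases, differed between DAPA and MI by -0.79 (unadjusted p = 0.0582 by limma).

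Among receptors of elastin and of its microfibrils, 5 of 11 tested were higher in MI and none lower. The integrin subunits Itgb5 and Itgav rose by 2.99 and 1.69, and Itga8 by 1.44. Glb1 and Ctsa, whose products belong to the elastin receptor complex, rose by 1.53 and 1.20. Neu1, listed with them, differed by 0.14 (unadjusted p = 0.438 by limma). All 10 receptor genes tested in DAPA vs. MI had negative fold changes, beside 52.8% of all genes, and none was called. The values were -0.54 for Glb1 and -0.49 for Itga8 (adjusted p = 0.558 by limma for both).

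The genes whose profile over the 9 rats was nearest to the mean profile of the 10 were Col6a1, Dpt, B4galt5, Col6a2 and Fzd7. Nearness was the root mean square distance of centred log2(FPKM + 1) values, 0.0921 for Col6a1, 0.121 for Dpt, 0.155 for B4galt5 and 0.164 for both Col6a2 and Fzd7, among 12986 genes compared. Col6a1, a chain of collagen VI, was at 36.1 ± 4.01 FPKM (SD, n = 3) in Sham, 221 ± 49.8 FPKM in MI and 123 ± 34.3 FPKM in DAPA. Of the 10 genes themselves, Mfap5 was nearest to their mean profile (0.339), and Efemp1 (0.837) and Fbln1 (0.836) were farthest. Of the 12986 other genes, 123 lay nearer to it than Mfap5, 2924 nearer than Efemp1 and 2915 nearer than Fbln1.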

How the data were processed

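RNA of left ventricles from 3 rats per group was sequenced on Illumina instruments. The table that the authors deposited holds FPKM for 35843 genes in 1 column for each rat. The submitters' processing notes name HISAT2 2.0.5, StringTie 1.3.3b, featureCounts 1.5.0-p3 and DESeq2. DESeq2 served for the authors' tests between pairs of groups according to the study's methods. The roles of the other 3 tools and the genome build are not given in the sources used here, so no gene coordinates other than those of the RefSeq promoter windows are given. Scaling to gene length and by a factor per library had been done by the authors before they deposited the FPKM. Whole reads were recovered from their steps for 18896 of 18896 genes with values in at least 4 libraries, within 0.02 reads, and served for depth only. FPKM are not counts, so no count test was used.

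The fit was limma 3.58.1 in R 4.3.3 on log2(FPKM + 1) with trend. Each fit held only the 6 rats compared, without covariates, and genes reaching an FPKM of 1 in 3 or more of them, with Benjamini-Hochberg adjustment over all genes tested. All 10 members passed this filter in every comparison. Fold changes on this scale understate the change of low genes. The code was tested on simulated data. Shares, ratios and values relative to fibroblast markers were tested between groups by exact permutation over rats (two-sided), whose smallest p is 0.1, in Python 3.11.15 with scipy 1.17.1. P-values set a difference against the spread between these rats, and those of limma also draw on the variances of all genes tested. Genes were named by a rule: the 10 members, from each further list at most 4 with the smallest p in MI vs. Sham and at most 2 in DAPA vs. MI, the marker genes, and the 5 nearest profiles. Neu1, beside Glb1 and Ctsa, and Mmp12 were named outside this rule. The members, lists and ratios were chosen with earlier results of these data known, which gives them no independent support. Where a gene name was repeated, the row with the highest mean was used. Replicate numbers did not pair rats: the correlation of same-numbered deviations was -0.304 to 0.195 over the comparisons. Alternatives covered the pseudocount, the filter, the scaling, the fit and leaving out each rat.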

Additional observations from a re-analysis of the deposited data

How the results depend on the processing

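The rise of all 10 genes in MI kept its direction and limma p under 0.05 in every alternative run, and 9 to 10 were called when single rats were left out (9 without MI replicate 1, where Fbln5 was below the fold threshold). In DAPA vs. Sham 7 were called in the main analysis and 10 when scaled to the FPKM sum of all genes, a scaling that moved the median of all genes by 1.297, -0.35 and 0.98 in the 3 comparisons. In DAPA vs. MI 1 to 4 of the 10 genes were called when rats were left out, with 1 without DAPA replicate 1 (Mfap2), and 0 with the adjusted p. Of the further lists 0 to 5 genes were called (0 without DAPA replicate 2, 1 without MI replicate 2, 5 without MI replicate 3), and 0 with the adjusted p. Scaling to the FPKM sum of all genes, tried for these lists after seeing the data, gave 43, 8 and 41 in the 3 comparisons against 31, 2 and 24. With 3 rats a group, differences of the size of those of Fbln2 and Emilin1 could not be resolved, and reads on genes outside the mitochondrial genome were fewest in Sham. The causes of these changes were not tested.

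Replicate numbers shared by groups did not pair the rats. A block on replicate number left 10, 2 and 7 elastic fibre genes called in MI vs. Sham, DAPA vs. MI and DAPA vs. Sham, against 10, 3 and 7, and Eln was the gene lost (unadjusted p = 0.071 by limma).

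The following directions turned. For log2 fold changes in DAPA vs. MI, Fbln2 was -0.29 with scaling to the FPKM sum of all genes and -0.23 to 0.34 when rats were left out, and Emilin1 was -0.054 and -0.35 under scalings to the FPKM sum without and with mitochondrial genes and -0.077 to 0.19 when rats were left out. Efemp1 in DAPA vs. Sham was -0.017 to 0.42 when rats were left out. For shares in DAPA vs. MI, in percentage points, Fbn1 was -0.667 in a sum without Eln and -0.268 to 1.44 when rats were left out, Fbln1 was -1.91 to 0.915 and Fbln5 -0.186 to 1.45. The share of Eln in DAPA vs. Sham was -4.56 to 2.50. Relative to 3 fibroblast markers, values in DAPA vs. MI were -0.16 for Fbln5, -0.17 for Mfap5 and -0.16 for Efemp2. Relative to all of them with rats left out, they were -0.23 to 0.19, -0.16 to 0.14 and -0.16 to 0.27 for these genes and -0.34 to 0.065 for Fbn1, with -0.97 to 0.078 for Efemp1 in MI vs. Sham and -0.43 to 0.31 for Eln in DAPA vs. Sham.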
